A study of Mus musculus with 2 samples.

Results

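Transcript levels of 10 glycolysis genes were examined in sorted Nestin-GFP+ (Nes-GFP+) cells of adult mouse brain and lung, with the balance between partner isoenzymes as the main readout. The genes were listed by name and include the paired forms Hk1 and Hk2 (hexokinases), Aldoa and Aldoc (aldolases), Eno1 and Eno2 (enolases) and Ldha and Ldhb (lactate dehydrogenase subunits), with Pkm (muscle-type pyruvate kinase) and Pgk1 (phosphoglycerate kinase). All 10 were counted in both libraries, out of 25814 gene symbols with at least 1 count in either.

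The series asked whether neural stem cells exist outside the central nervous system. It held 1 brain library and 1 lung library of Nes-GFP+ cells from mice of about 6 weeks, labelled as strain C57BL/6, in which GFP is driven by Nestin regulatory elements. The methods give CD1, or CD1 mixed with C3H, as the background with which transgenic mice were bred, and each library stood for 1 biological replicate. Whether it pooled several animals is not given in the sources used here. GFP marks any cell in which the Nestin elements are active or in which the protein persists. The sort held neural, vascular and mesenchymal cells, and also microglia, thymocytes and epithelial cells. The study ascribes its non-neural lung cells to unspecific labelling by the reporter, and the cause was not tested here. Neither group was treated.

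Glycolysis converts glucose to pyruvate, and several of its steps can be run by enzymes from different genes that are used in different tissues. Hexokinase traps glucose in the cell as glucose 6-phosphate, aldolase splits fructose 1,6-bisphosphate, enolase makes phosphoenolpyruvate, and pyruvate kinase makes pyruvate with ATP. Lactate dehydrogenase works as a tetramer of A and B subunits that interconverts pyruvate and lactate. In the brain Aldoc is classically an astroglial gene and Eno2 a gene of mature neurons, while Hk2 is the inducible hexokinase of muscle, adipose tissue and many dividing cells. Quiescent neural stem cells (qNSCs) of the subventricular zone share many genes with astrocytes, and when activated they divide and give rise to neuroblasts (NBs).

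The 5′ flanks of both partners are shown for the hexokinases and lactate dehydrogenases, to set side by side flanks with and without the short word ACGTG. The core of the sites bound by hypoxia-inducible factors is ACGTG or GCGTG. Only ACGTG was counted, and GCGTG stands in the Hk1 and Ldhb flanks shown, so a flank without ACGTG is not one without such a core. Each line gives the 250 bases before a RefSeq start (GRCm38.p6), 5′ to 3′ on the gene's own strand, with ACGTG or its reverse complement CACGT in capitals.
Hk1, chr10:62340422-62340671, minus strand: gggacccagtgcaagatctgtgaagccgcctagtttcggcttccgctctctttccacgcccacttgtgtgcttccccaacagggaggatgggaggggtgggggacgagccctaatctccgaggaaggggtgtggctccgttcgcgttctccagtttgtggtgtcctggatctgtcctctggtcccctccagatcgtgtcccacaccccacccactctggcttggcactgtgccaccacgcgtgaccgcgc
Hk2, chr6:82774455-82774704, minus strand: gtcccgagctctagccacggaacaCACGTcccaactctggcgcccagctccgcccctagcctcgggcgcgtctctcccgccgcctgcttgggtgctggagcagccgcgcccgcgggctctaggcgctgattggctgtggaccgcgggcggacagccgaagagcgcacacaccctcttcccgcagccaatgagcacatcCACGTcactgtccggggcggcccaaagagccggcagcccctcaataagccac
Ldha, chr7:46845554-46845803, plus strand: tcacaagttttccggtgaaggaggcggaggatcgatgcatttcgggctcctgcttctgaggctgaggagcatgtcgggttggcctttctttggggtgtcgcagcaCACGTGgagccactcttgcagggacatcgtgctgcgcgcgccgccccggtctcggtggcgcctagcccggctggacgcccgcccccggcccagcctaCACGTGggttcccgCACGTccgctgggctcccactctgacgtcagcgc
Ldhb, chr6:142507958-142508207, minus strand: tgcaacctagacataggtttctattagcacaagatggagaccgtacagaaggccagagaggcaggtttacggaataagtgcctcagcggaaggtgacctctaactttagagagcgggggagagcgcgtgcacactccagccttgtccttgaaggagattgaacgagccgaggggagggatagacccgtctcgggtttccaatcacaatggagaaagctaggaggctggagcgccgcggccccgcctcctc
The Ldha flank shown held 5 matches on either strand, of which 4 came from 2 copies of CACGTG, a palindrome that counts on both strands. A second Ldha start in the table, with its flank at chr7:46846832-46847081, held none. The Hk2 flank held 2 matches, and the flanks of Hk1 and Ldhb held none. The aldolases differed likewise, with 1 site in Aldoa, which lies in 2 overlapping flanks of its 3, and no match in the 2 Aldoc flanks. Among all 32851 RefSeq flanks of the same length, 16.6% held at least 1 match and 0.134% held at least 5. Of the 18 flanks of the 10 genes, 6 held at least 1 match, with the site of Aldoa counted in both flanks that hold it, and these belonged to 5 genes, namely Aldoa, Hk2, Ldha, Pgk1 and Pkm. No flank of Hk1, Aldoc, Eno1, Eno2 or Ldhb held it, which says only that these letters were not in these windows.

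After the filters named in the study's methods on genes and mitochondrial counts, 4151 of 4640 brain barcodes with a median of 4209 unique molecular identifiers (UMIs) and 5608 of 5981 lung barcodes with a median of 5585 UMIs were kept as cells. These are fewer than the cells shown in the study, which equal all barcodes of the files. The 2 libraries shared 15 barcodes, 11 of them among kept cells. Cells were placed in classes by the number of marker genes with a UMI, with no glycolysis gene among the markers, which left 29.7% of brain cells and 26.9% of lung cells without a class. Levels are given as CPM, the UMIs of a gene summed over a class and scaled to the same total in every class. Of the 24 classes, 7 held under 50 cells. Each UMI of a 3′ library stands for 1 captured molecule whatever the length of the transcript, so UMIs of 2 forms of an enzyme were added to give a pair share. With 1 library per tissue no test between groups was possible, and intervals are 95% intervals (exact binomial for shares, conditional binomial for ratios, Newcombe for differences of shares) that cover counting error only. A gene is called higher or lower where it had at least 20 UMIs in both classes together, was at least 2-fold apart and had an interval that left out 1.

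The comparison that the design of these classes turns on is between qNSCs and cycling progenitors of the brain. The 112 qNSCs carried a median of 3 of 6 quiescent markers (Gfap, Thbs4, Hopx and others) and 5 of 6 shared astroglial markers. The 96 cycling progenitors carried a median of 3 of 6 activated markers (Egfr, Dll1 and others) and 6.5 of 10 G2/M markers, and at most 1 Dcx UMI. They also carried a median of 5 of 10 neuroblast markers, 40 of them passed the neuroblast gate, and 19 passed the astroglial gate. With no upper limit on genes per cell the class held 168 cells. Median depth was 3616 UMIs in qNSCs and 9473.5 in cycling progenitors, and median mitochondrial shares were 4.22% and 3.46%. Of the qNSCs, 58 had only 1 quiescent marker more than astrocyte-like markers, so for these the border to astrocyte-like cells rested on 1 marker.

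Aldolase transcripts were dominated by Aldoc in qNSCs and less so in cycling progenitors. Aldoc (chr11:78322968-78327781, plus strand) made up 88.0% (86.3 to 89.5) of aldolase UMIs in qNSCs, 1471 of 1672. In cycling progenitors it made up 51.0% (41.0 to 60.9), 53 of 104, which put the difference at 37.0 percentage points (27.5 to 46.6). It was 57.3 with 1 more marker required for each class and 58.4 as a mean over cells. The level of Aldoc was 3419.6 CPM against 59.9 CPM, a ratio of 57.0 (43.4 to 76.5) that ran from 34.6 to 133 over the alternatives. Aldoa was also higher in qNSCs, at 467 against 57.7 CPM, a ratio of 8.10 (5.93 to 11.2), so the step was higher in both forms and more so in Aldoc. The files give Aldoa as 1 symbol, for which GENCODE M21 lists 2 neighbouring gene entries (chr7:126795234-126800751 and chr7:126800790-126809108, minus strand).

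Cell by cell, the 2 classes differed in which aldolase genes were found together. Of 112 qNSCs, 78 held UMIs of both forms, 32 of Aldoc alone and none of Aldoa alone. Of 96 cycling progenitors, 28 held Aldoa alone, 9 Aldoc alone, 8 both and 51 neither. Aldoc UMIs in cycling progenitors were concentrated, with 25 of the 53 in 2 cells, the highest with 14, while 79 cells had none. Aldoc was found in 17.7% of cycling progenitors against 7.84% of brain endothelial cells, at median depths of 9473.5 and 3784 UMIs. After thinning to 1000 UMIs per cell these shares were 4.17% (1.15 to 10.3) and 3.16% (1.37 to 6.14), and in qNSCs 89.9%. The summed level of Aldoc was 59.9 CPM (44.9 to 78.4) in cycling progenitors and 22.0 CPM (13.8 to 33.4) in brain endothelial cells, so the levels did not overlap while the thinned shares did. Brain endothelial cells are not a pure measure of free RNA for Aldoc, since lung endothelial cells held it at 33.9 CPM with 0 UMIs of Slc1a2, and how much of the Aldoc of cycling progenitors was free RNA was not tested. The ratio of Aldoc to Slc1a2, an astroglial glutamate transporter in no gate, was 0.427 in qNSCs, 0.0965 in cycling progenitors and 0.324 in endothelial cells. Slc1a2 itself was 12.9 times higher (11.8 to 14.1) in qNSCs than in cycling progenitors, and Mt3, a metallothionein of astroglia in no gate, 42.7 times higher (33.6 to 55.0). Both thus moved with Aldoc, and their part in its difference was not tested.

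Hexokinase counts were few, and the form with more UMIs differed between the classes in the main setting but not in all alternatives. Hk2 (chr6:82725025-82774454, minus strand) gave 2 of 14 hexokinase UMIs in qNSCs, 14.3% (1.78 to 42.8), and 21 of 33 in cycling progenitors, 63.6% (45.1 to 79.6). The difference was -49.4 percentage points (-66.9 to -18.6), and it was -30 with no upper limit on genes per cell and -26.04 in Louvain clusters. In both of these settings Hk1 led in both classes. Cycling progenitors then held 39 Hk1 and 31 Hk2 UMIs with no upper limit, and 59 and 37 in Louvain clusters. Hk2 stood at 4.65 CPM against 23.8 CPM, a ratio of 0.196 (0.0223 to 0.801). This call was lost in 4 alternatives, where the ratio ran from 0.250 to 0.448. Hk1 (chr10:62268855-62379908, minus strand), the widely expressed form, had 12 UMIs in each class and a ratio of 2.06 (0.845 to 5.0). The 21 Hk2 UMIs of cycling progenitors lay in 17 cells with no cell above 3. Brain endothelial cells held 1 Hk2 UMI at 1.0 CPM, and the part of free RNA in the Hk2 of cycling progenitors was not tested. Within the cycling progenitors Hk2 was present both inside the neuroblast gate, at 31.3 CPM in 40 cells, and outside it, at 18.0 CPM in 56 cells.

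Lactate dehydrogenase transcripts were mostly Ldhb in both classes, and more so in qNSCs. Ldhb (chr6:142490249-142507957, minus strand) made up 88.0% (84.6 to 90.9) of the pair in qNSCs, 383 of 435 UMIs, and 77.0% (72.9 to 80.7) in cycling progenitors, 361 of 469. The difference was 11.1 percentage points (6.14 to 15.9). Ldhb was at 890.3 against 408 CPM, a ratio of 2.18 (1.88 to 2.52), which was 1.98 and no longer called with 1 more marker. Ldha (chr7:46841475-46855627, plus strand) was at 120.9 against 122.2 CPM, a ratio of 0.990 (0.697 to 1.39). Cycling progenitors inside the neuroblast gate had less Ldha, 60.1 CPM, than those outside it, 169.6 CPM, and the difference in share was 2.51 percentage points with the former and 15.5 with the latter. Cells with Ldhb and no Ldha were 57.1% of qNSCs and 41.7% of cycling progenitors, and cells with both were 24.1% and 49.0%, values that also move with the unequal depth.

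Enolase transcripts were almost all Eno1 in both classes. Eno2 gave 2 of 162 enolase UMIs in qNSCs, 1.23% (0.150 to 4.39), and 1 of 78 in cycling progenitors, 1.28% (0.0325 to 6.94), a difference of -0.0475 percentage points (-5.75 to 3.28). Eno1 (chr4:150236721-150248879, plus strand) was at 372 against 87.1 CPM, a ratio of 4.27 (3.23 to 5.68), which was 2.09 (1.76 to 2.49) in Louvain clusters. Eno2 (chr6:124760053-124769673, minus strand) had 3 UMIs over both classes, too few to compare. Pkm (chr9:59656368-59679375, plus strand) was at 390.5 against 423 CPM, a ratio of 0.923 (0.765 to 1.11). Its M1 and M2 splice forms, which differ between resting and proliferating cells in many tissues, are not resolved by these counts. Pgk1 (chrX:106187100-106203699, plus strand) was at 32.5 against 43.0 CPM, a ratio of 0.757 (0.379 to 1.43).

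In all, 4 of the 9 genes with enough UMIs were called higher in qNSCs (Aldoa, Aldoc, Eno1 and Ldhb) and 1 was called lower (Hk2). Over the 8170 genes tested in this comparison, 17.0% were called higher, 23.8% lower and 40.8% either way. The median log2 ratio of the 9 was 1.04, beside -0.26 over all genes tested. Scaling by the median ratio of genes in place of total UMIs shifted every log2 ratio by 0.24 and left the same 5 genes called. With 1 more marker 3 were called, in 3 other alternatives 4, without Hk2, and with qNSCs and astrocyte-like cells joined 7. The joined class held 633 cells, as it also took in non-cycling astroglial cells that belonged to neither of these classes.

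**Figure D1:**
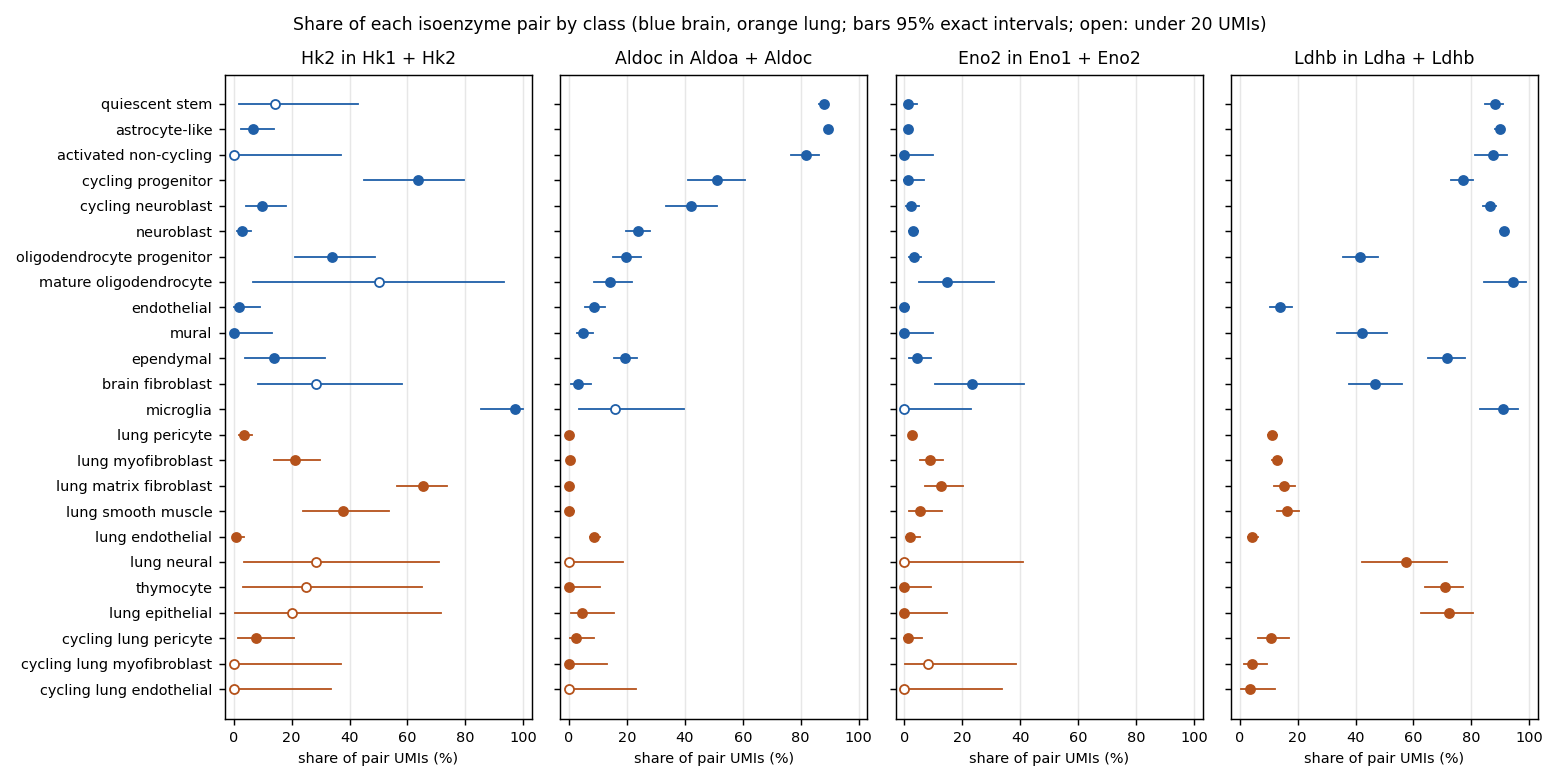
Share of UMIs of each pair given by its second form (x axis, percent) in 24 classes (y axis), with exact 95% intervals as bars, brain in blue, lung in orange and open points under 20 UMIs. Aldoc falls from 88.0% in quiescent stem cells to 51.0% in cycling progenitors, Hk2 stands highest in microglia at 97.2%, and Ldhb is above 70% in most neural classes and below 17% in lung mesenchymal and endothelial classes.

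Between qNSCs and the 400 astrocyte-like cells, the class nearest to them by markers, none of the 8 members tested was called. Of 9232 genes, 7.65% were called higher in qNSCs, 4.55% lower and 12.2% either way. Aldoc was at 0.780 (0.737 to 0.825) of the astrocyte-like level of 4382.4 CPM and Eno1 at 0.649 (0.546 to 0.767), while Pkm was 1.47 times higher (1.23 to 1.76) in qNSCs. The aldolase and lactate dehydrogenase shares differed by -1.47 percentage points (-3.23 to 0.152) and -1.75 (-5.38 to 1.34), intervals that included 0. The activated non-cycling class, gated on at least 3 activated markers and at most 1 marker of each cycle list, held 24 cells. In these Aldoc was at 1508.6 CPM, and of the 7 members tested it alone was called between qNSCs and them, at 2.27-fold (1.97 to 2.62) higher in qNSCs, where 5.84% of 5048 genes were called higher and 8.42% lower. Their Aldoc UMIs were also concentrated, with 73 of 219 in 2 cells, and 8 of the 24 cells held Aldoa alone. Slc1a2 was 2.13 times higher (1.94 to 2.33) in qNSCs in the same comparison.

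Cycling progenitors and cycling NBs, both in cycle, differed in 4 members. Hk2 was 8.22 times higher (3.50 to 21.5) in the progenitors, with 21 UMIs in 96 cells against 8 UMIs in 334 cells. Aldoc was 3.13 times higher (2.10 to 4.67), Ldha 2.80 (2.14 to 3.66) and Aldoa 2.19 (1.5 to 3.17). Of all 10025 genes tested, 7.92% were called higher in the progenitors and 6.82% lower, and no member was called lower. Hk2 made up 63.6% of hexokinase UMIs in the progenitors and 9.64% (4.25 to 18.1) in cycling NBs, 54.0 percentage points apart (35.1 to 68.9). Ldhb made up 77.0% and 86.5% (84.0 to 88.6), with the difference at -9.49 percentage points (-14.02 to -5.18). Slc1a2 was 3.37 times higher (2.98 to 3.80) in the progenitors, near the ratio of Aldoc, and the part of astroglial transcripts in that ratio was not tested. The gate of cycling NBs left out cells that passed the astroglial gate, while that of the progenitors kept them, 19 of 96 cells. The 2 gates thus treat astroglial genes such as Aldoc unequally, and their ratios here are not independent of the gates.

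**Figure D2:**
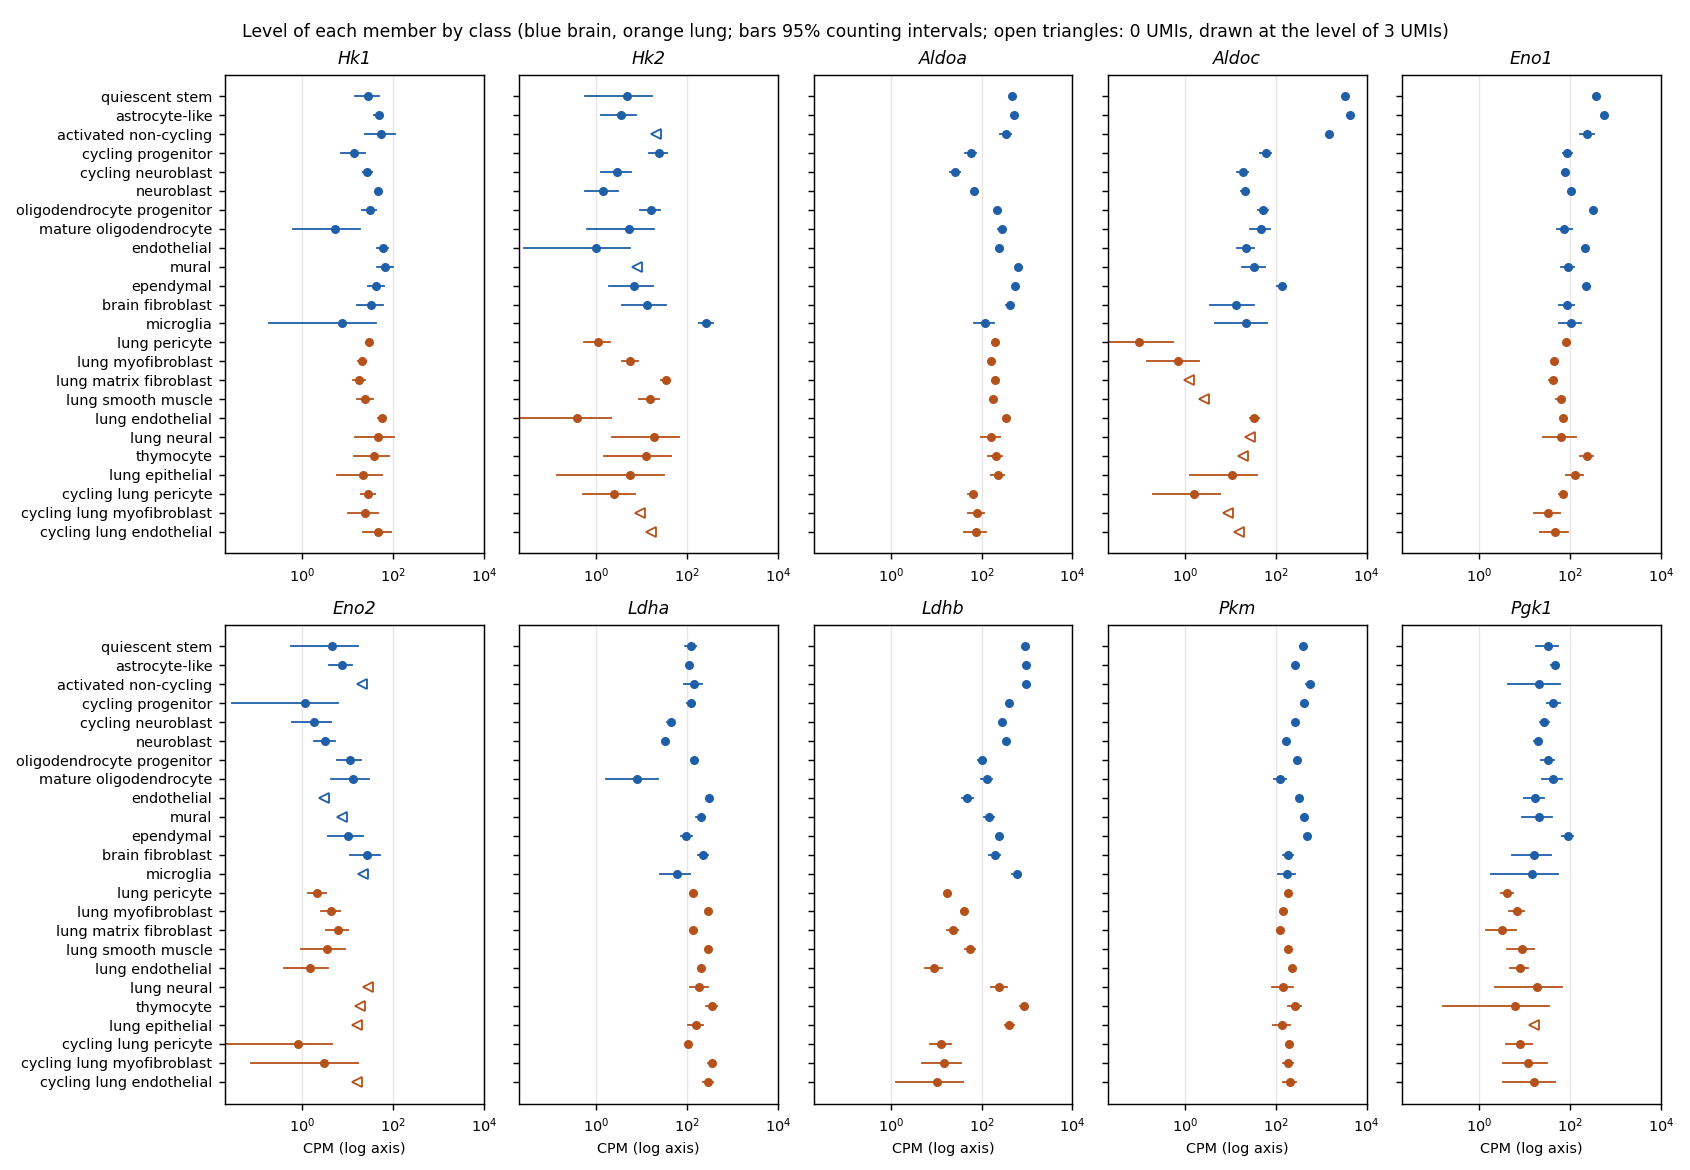
Level of each of the 10 genes (x axis, CPM, log axis) in 24 classes (y axis), with 95% counting intervals, brain in blue and lung in orange. Open triangles mark classes with 0 UMIs, drawn at the level of 3 UMIs. Aldoc spans from 4382.4 CPM in astrocyte-like cells to 0 UMIs in 6 lung classes, while Pkm stays between 121.3 and 571.7 CPM.

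Across all classes the forms of each pair ran in different orders. Aldoc was highest in astrocyte-like cells, then qNSCs, then activated non-cycling cells, each step beyond counting error, followed by ependymal cells at 133.5 CPM. From cycling progenitors at 59.9 CPM down to brain fibroblasts at 13.2 CPM, no neighbours in the brain order differed beyond their intervals. Aldoa had its highest levels elsewhere, in mural cells at 640.2 CPM and ependymal cells at 554.7 CPM, and its lowest in cycling NBs at 26.4 CPM. In the lung Aldoc was close to absent from mesenchyme, with 1 UMI in 2044 pericytes and 0 UMIs in 307 matrix fibroblasts and 190 smooth muscle cells. It was present in lung endothelial cells, with 92 UMIs in 62 of 505 cells, 33.9 CPM, no cell above 5 UMIs. Slc1a2 and Mt3, the other astroglial transcripts examined, had 0 UMIs in those lung endothelial cells.

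Hk2 was a minor form in most classes and the major one in few. Brain microglia, 35 cells, held 35 Hk2 UMIs and 1 Hk1 UMI, a share of 97.2% (85.5 to 99.9) at 258.9 CPM. This level was beyond counting error above the next class in the brain order, the cycling progenitors. In the lung, matrix fibroblasts had a share of 65.4% (56.4 to 73.6) at 33.4 CPM, and smooth muscle cells had 37.8% (23.8 to 53.5). Oligodendrocyte progenitors (OPCs) stood at 34.0% (21.2 to 48.8), and brain mural cells held 26 Hk1 UMIs and 0 Hk2 UMIs. Lung endothelial cells held 152 Hk1 UMIs and 1 Hk2 UMI, 0.654% (0.0165 to 3.59). Hk1 varied less, from 5.19 CPM in mature oligodendrocytes to 66.8 CPM in mural cells, and its neighbours in either order overlapped except for cycling NBs over cycling progenitors.

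The Ldhb share was higher in most neural classes than in vascular and mesenchymal ones. It was 94.3% (84.3 to 98.8) in mature oligodendrocytes, 91.3% (90.0 to 92.6) in NBs, 86.5% in cycling NBs and 71.7% (64.9 to 77.9) in ependymal cells. Microglia, which are immune cells, had 90.9% (82.9 to 96.0). OPCs stood apart from the other neural progenitors at 41.7% (35.7 to 47.9), with Ldhb at 102.0 CPM and Ldha at 142.8 CPM. Brain fibroblasts, at 46.8% (37.9 to 55.9), and brain mural cells, at 42.2% (33.8 to 51.0), were not below OPCs. Brain endothelial cells had 13.96% (10.5 to 18.0), with the highest Ldha level of the brain classes at 302 CPM. In the lung the share was 4.22% in endothelial cells, 11.2% in pericytes, 16.3% in smooth muscle cells and 70.8% (63.9 to 77.2) in 76 thymocytes. The 20 lung epithelial cells gave 72.1% (62.5 to 80.5), but 43 of their 75 Ldhb UMIs came from 1 cell. The 22 lung neural cells, gated on Sox10 and other markers, gave 57.4% (42.2 to 71.7). A near-identical 3′ end elsewhere in the transcriptome, that of Gm5514, makes the low lung values of Ldhb uncertain, with 138 UMIs of Gm5514 beside 1216 of Ldhb in the whole lung library.

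Eno2 remained low throughout. Its highest level was 26.3 CPM in 54 brain fibroblasts, 8 of 34 enolase UMIs or 23.5% (10.7 to 41.2), but 5 of the 8 lay in 2 cells and 49 cells had none. Mature oligodendrocytes had a share of 14.7% (4.95 to 31.1). Among lung classes it reached 12.7% (7.29 to 20.1) in matrix fibroblasts. In NBs, which become neurons, it gave 16 of 531 enolase UMIs, 3.01% (1.73 to 4.85). No neighbours in the order of Eno2 levels differed beyond their intervals in either tissue. Eno1 was highest in astrocyte-like cells at 573 CPM, and Eno1b, a near-identical copy, had 70 UMIs beside 5077 of Eno1 in the brain library.

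Pkm and Pgk1, with no partner among these genes, were read by level alone. Pkm ran from 124.4 CPM in mature oligodendrocytes to 571.7 CPM in activated non-cycling cells in the brain, and from 121.3 to 260.7 CPM in the lung. Pgk1 was highest in ependymal cells at 90.7 CPM, above the next class beyond counting error, and was at most 18.4 CPM in any lung class. Pgk1 gave 862 UMIs in the whole brain library and 212 in the lung library, and Pgam1, the next enzyme of the pathway, gave 54 and 35. How reads with several matches were counted is not given in the sources used here, so the levels of both genes are uncertain.

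The genes whose levels ran most like those of a member over all 24 classes were found by Pearson's r of log2(CPM + 10) among 13182 genes, as a description with points that share libraries and differ in depth. For Aldoc these were Slc6a11 (r = 0.966), an astrocytic GABA transporter, Fam107a (0.966) and Acsl6 (0.948). For Hk2 they were Rab32 (0.846), Fcer1g (0.827) and Cx3cr1 (0.810), the last being one of the markers that defined microglia, the class with by far the most Hk2. For Ldhb they were Ikzf2 (0.834), Zfp160 (0.815) and Sfrs18 (0.804), for Ldha Tmem214 (0.775), Sec11a (0.765) and Aldh2 (0.757), and for Eno2 Aldh1a1 (0.80), Zkscan2 (0.749) and Rrp12 (0.743). The values for Eno2 rest on few molecules, since its highest level, 26.3 CPM in brain fibroblasts, came from 8 UMIs.

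Whether the same genes differed between non-cycling and cycling cells outside the stem cells was examined in NBs and in 3 lung lineages. Aldoa was called higher in the non-cycling cells of all 4. It was at 67.7 against 26.4 CPM in NBs, a ratio of 2.57 (1.99 to 3.35), where 8.61% of 11537 genes were called higher and 8.44% lower. The ratio was 3.03 (2.42 to 3.83) in lung pericytes, where 2.84% of 11957 genes were called higher, 7.31% lower and 10.2% either way. It was 2.04 (1.38 to 3.14) in lung myofibroblasts, where 5.06% of 10576 genes were called higher and 7.53% lower. It was 4.79 (2.84 to 8.79) in lung endothelial cells, where 3.98% of 9404 genes were called higher, 5.53% lower and 9.51% either way. No member was called lower in the non-cycling cells of any of the 4. The cycling myofibroblasts and endothelial cells numbered 44 and 25.

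No other member was called in more than 1 of these 4 lineages. Eno1 lay above 1 in all 4, at 1.33 (1.14 to 1.57) in NBs, 1.13 (0.906 to 1.42) in pericytes, 1.38 (0.754 to 2.81) in myofibroblasts and 1.46 (0.753 to 3.24) in endothelial cells. Pgk1 lay below 1 in all 4, at 0.724 (0.530 to 0.992), 0.518 (0.256 to 1.16), 0.561 (0.197 to 2.20) and 0.489 (0.146 to 2.56) in the same order. For both genes the interval left out 1 in NBs alone. Aldoc did not separate NBs from cycling NBs, with a ratio of 1.10 (0.781 to 1.56), and its share was lower in NBs, 23.7% (19.8 to 28.0) against 42.1% (33.3 to 51.2). In lung endothelial cells Aldoc was at 33.9 CPM beside 0 UMIs in the cycling cells, at least 2.14-fold higher when the cycling cells are set to 3 UMIs, with a counting interval of the ratio that starts at 1.71. Ldhb was 2.79 times higher (1.17 to 8.69) in non-cycling myofibroblasts, with 5 UMIs in the cycling cells, and 1.24 times higher (1.14 to 1.35) in NBs. Ldha was lower in non-cycling than in cycling NBs, with a ratio of 0.754 (0.592 to 0.962), and in lung endothelial cells, 0.692 (0.524 to 0.931), and was higher in lung pericytes, 1.30 (1.08 to 1.56). In lung myofibroblasts the Ldha ratio was 0.827 (0.682 to 1.01). Hk2 had 7 and 8 UMIs in NBs and cycling NBs and was too sparse to compare in lung pericytes and endothelial cells as well. In lung myofibroblasts it had 24 UMIs beside 0 in the cycling cells, and shares of 21.1% and 0% differed by 21.1 percentage points (-12.03 to 29.4), an interval that held 0. Pkm stood at 0.613 (0.555 to 0.678) in NBs, while its intervals held 1 in pericytes, 0.958 (0.837 to 1.10), myofibroblasts, 0.770 (0.594 to 1.01), and lung endothelial cells, 1.11 (0.802 to 1.57). Gapdh, the glyceraldehyde 3-phosphate dehydrogenase of the pathway, was below 1 in each of these 4 ratios, from 0.441 (0.348 to 0.566) in myofibroblasts to 0.706 (0.527 to 0.964) in endothelial cells, and 0.645 (0.566 to 0.733) in qNSCs over cycling progenitors. Gapdh has 106 near-identical copies in the annotation, so its counts are uncertain.

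**Figure D3:**
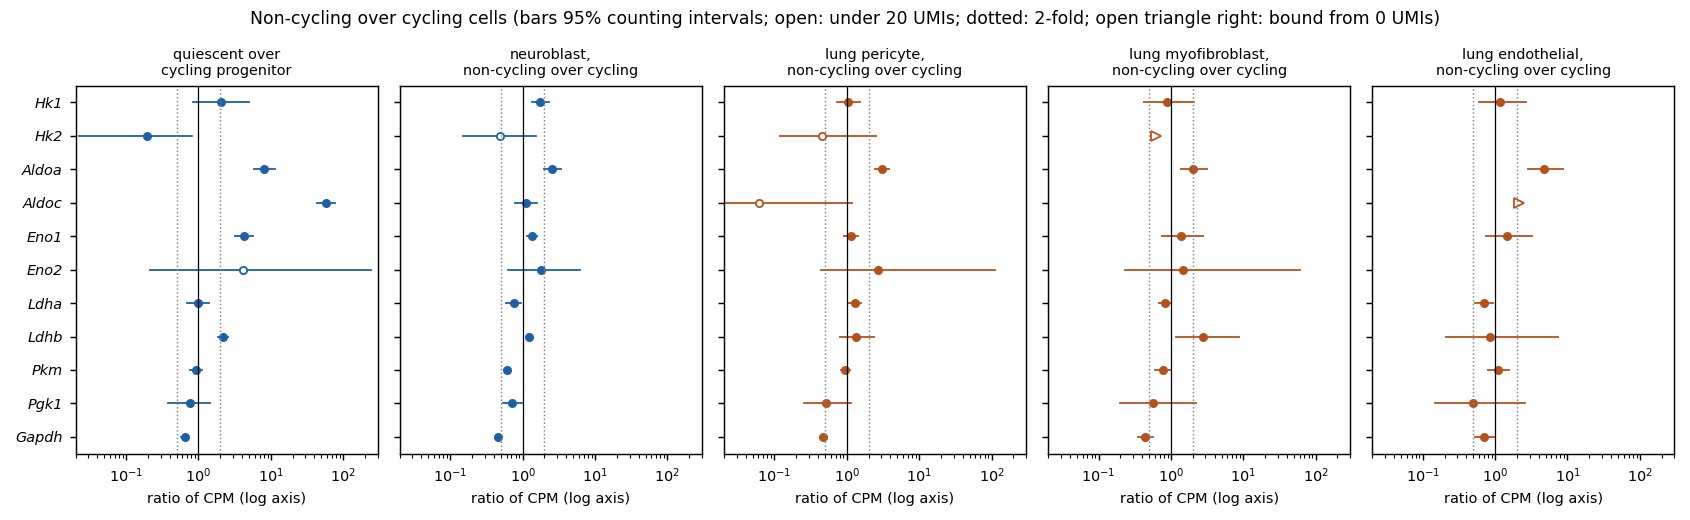
Ratio of CPM of non-cycling over cycling cells (x axis, log axis) for the 10 genes and Gapdh (y axis) in 5 panels, with 95% counting intervals, dotted lines at 2-fold, open points under 20 UMIs and open triangles for bounds from 0 UMIs. Genes with too few UMIs and 0 in a class have no point. Aldoa lies to the right of 1 in all 5 panels, from 2.04 to 8.10, while Aldoc is far to the right, at 57.0, for the stem cells.

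The rest of the pathway was read from lists of 20 enzymes, 10 transport genes, 16 switch genes and 17 hypoxia response genes. Of all genes tested between qNSCs and cycling progenitors, 17.0% were called higher and 23.8% lower. Here 3 of 7 enzymes with enough UMIs were called higher in qNSCs and none lower, namely the phosphofructokinases Pfkp at 8.73 (2.85 to 35.7), Pfkm at 2.68 (1.51 to 4.83) and Pfkl at 2.15 (1.13 to 4.12). Gpi1 stood at 1.35 (0.947 to 1.90) and Tpi1 at 1.37 (0.938 to 1.99). Among 4 transport genes Slc2a1, the glucose transporter of many cells, was higher at 4.31 (2.51 to 7.62), and Slc2a4, the insulin-regulated glucose transporter, was lower at 0.206 (0.0233 to 0.846). The monocarboxylate transporter Slc16a1 was at 1.54 (0.734 to 3.17). Among 8 switch genes, Pfkfb2 at 4.80 (1.73 to 15.2) and Pfkfb3 at 3.64 (1.77 to 7.82), which set the fructose 2,6-bisphosphate that activates phosphofructokinase, were higher.

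Among 9 genes of the hypoxia response list, 4 were called higher in qNSCs and 1 lower. Epas1, which encodes HIF-2 alpha, was at 33.9 (8.67 to 292) with 33 and 2 UMIs. Egln3, a prolyl hydroxylase, had 21 and 1 UMIs, a ratio of 43.2 (6.94 to 1785). P4ha1, a collagen prolyl hydroxylase, stood at 6.05 (3.49 to 11.0) and Vegfa at 3.82 (2.37 to 6.28). Mycn was lower at 0.182 (0.0973 to 0.315), and Hif1a stood at 0.983 (0.629 to 1.51). In all, 12 of the 28 genes tested in these lists were called, 42.9%, near the 40.8% of all genes called either way. The count was 7 with 1 more marker, 18 in Louvain clusters and 22 with qNSCs and astrocyte-like cells joined. By direction, 35.7% of the 28 were called higher and 7.14% lower, beside 17.0% and 23.8% of all genes. The median log2 ratios of the 4 lists, 0.45, 0.49, 0.47 and 0.94, can be read beside -0.26 over all genes tested.

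**Figure D4:**
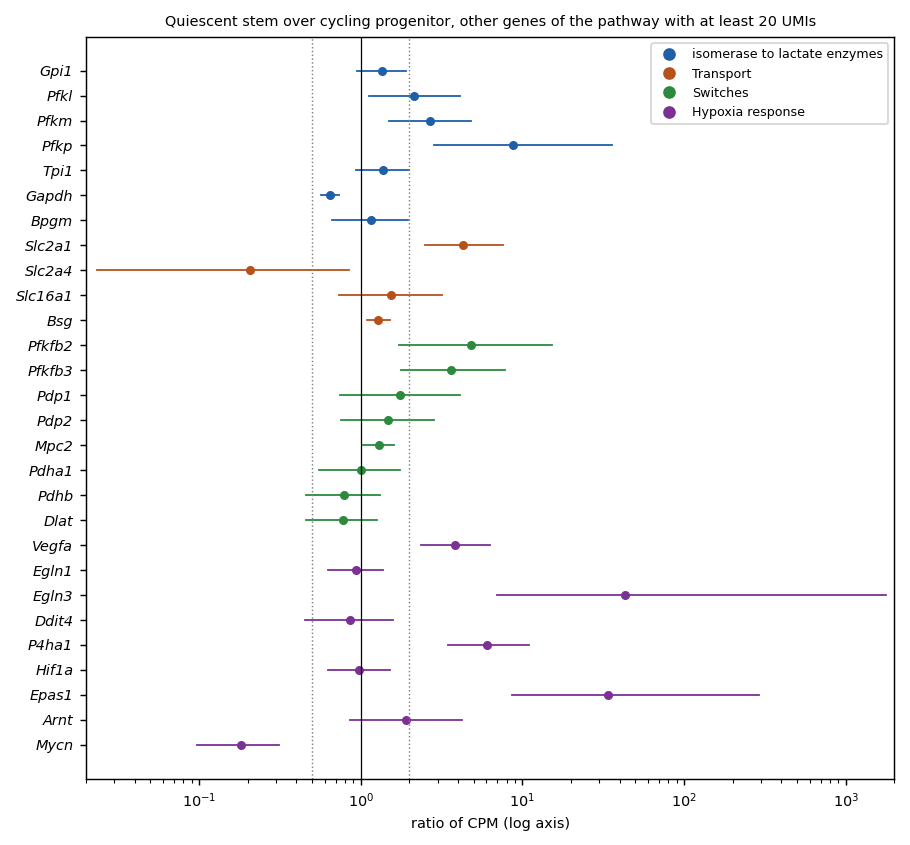
Ratio of CPM of quiescent stem cells over cycling progenitors (x axis, log axis) for the 28 pathway genes with at least 20 UMIs (y axis), coloured by list, with 95% counting intervals and dotted lines at 2-fold. The phosphofructokinases, Slc2a1, Pfkfb2 and Pfkfb3 lie above 2, and Slc2a4 and Mycn lie below 0.5.

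Endothelial and mural cells were compared between brain and lung, where tissue and library cannot be told apart. Of 8 members tested between brain and lung endothelial cells, 3 were called higher in brain and none lower, where 9.94% of 10026 genes were called higher and 12.6% lower. Ldhb was at 49.1 against 8.85 CPM, a ratio of 5.54 (3.34 to 9.45), with 49 and 24 UMIs. Eno1 was at 212 against 69.3 CPM, a ratio of 3.06 (2.50 to 3.75), and Pgk1, whose counts were low in both libraries, at 2.20 (1.09 to 4.38). Ldha was at 1.505 (1.30 to 1.74), and the Ldhb share was 13.96% in brain and 4.22% (2.72 to 6.21) in lung. Aldoa was at 0.671 (0.580 to 0.774). Aldoc shares were 8.49% (5.40 to 12.6) and 8.75% (7.11 to 10.6), and the brain value sat beside 68.1 CPM of Slc1a2, which had 0 UMIs in lung.

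Brain mural cells against lung pericytes gave 5 of 8 members higher in brain and none lower, where 11.8% of 11787 genes were called higher and 10.6% lower. Ldhb was at 146.6 against 17.1 CPM, a ratio of 8.58 (6.25 to 11.6), and its share was 42.2% (33.8 to 51.0) against 11.2% (9.71 to 12.9). Pgk1 was at 4.96 (2.01 to 10.7) with 8 and 42 UMIs, Aldoa at 3.31 (2.89 to 3.77), Pkm at 2.34 (1.98 to 2.74) and Hk1 at 2.24 (1.44 to 3.35). Eno1 was at 1.13 (0.782 to 1.59) and Ldha at 1.49 (1.17 to 1.87). Ldhb stood at 346.8 CPM in NBs, the brain class with the most cells, and the part of free RNA in the brain values of Ldhb was not tested.

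Of the other pathway genes, all 4 transport genes tested were called between brain and lung endothelial cells, 3 higher in brain and 1 lower. Of all 10026 genes tested there, 9.94% were called higher and 12.6% lower. Slc2a1 was at 1805.8 CPM in brain and 10.7 CPM in lung, a ratio of 168.8 (117.2 to 252.9). Slc16a1 was at 942 against 1.11 CPM, with 941 and 3 UMIs, a ratio of 852 (291 to 4138), and its chaperone Bsg at 25.6 (24.5 to 26.7). Emb, a chaperone of the same transporter family, had 0 UMIs in brain and 143 in lung. Gpi1, Tpi1 and the phosphofructokinases were within 2-fold, from 1.30 to 1.58, and Gapdh was at 1.02 (0.855 to 1.20). In mural cells over lung pericytes Pfkl was at 4.28 (2.92 to 6.11), Gpi1 at 2.41 (1.82 to 3.14), Gapdh at 2.39 (1.99 to 2.87) and Slc2a1 at 14.2 (6.41 to 30.0). The 3′ end of Gpi1 has near-identical stretches in Adh5 and Mrpl27, so its counts are uncertain.

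**Figure D5:**
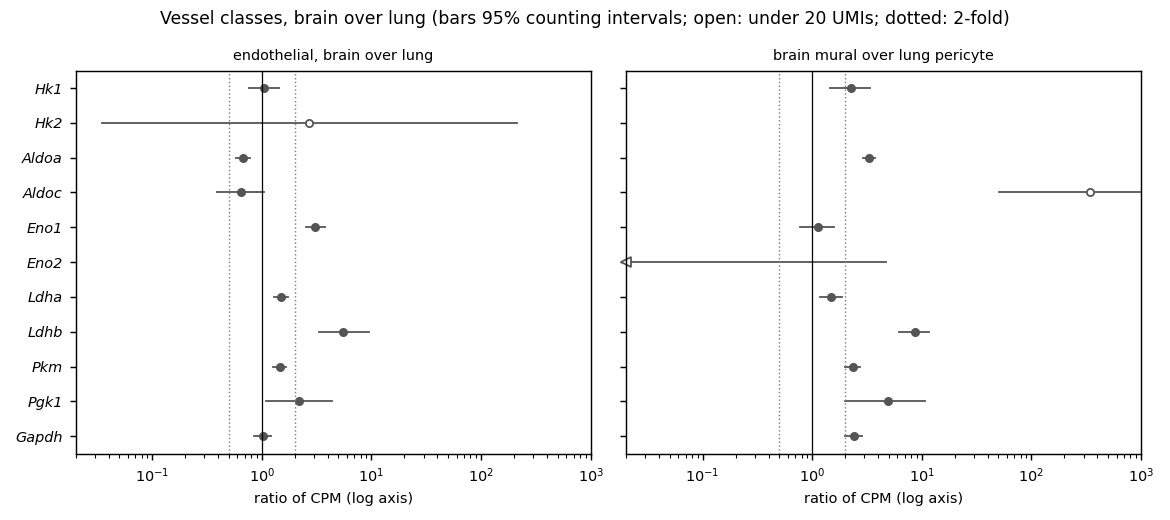
Ratio of CPM of brain over lung vessel cells (x axis, log axis) for the 10 genes and Gapdh (y axis), with 95% counting intervals, dotted lines at 2-fold and open points under 20 UMIs. Ldhb lies at 5.54 in endothelial cells and 8.58 in mural cells over lung pericytes, to the right of 2 in both panels. A triangle at the left edge marks Eno2 with 0 UMIs in brain mural cells, and the interval of Aldoc there runs past the axis.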

How the data were processed

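Nes-GFP+ cells sorted from adult mouse brain and lung were captured with the 10x Genomics 3′ kit version 3. Per the submitters' processing notes and the study's methods, reads were handled with bcl2fastq (2.19.1.403), UMI-tools (1.0.0 in the notes), STAR (2.7.1a) and featureCounts (1.6.4) on mm10. The annotation, strand setting, treatment of reads with several matches and rule for calling cells are not given in the sources used here. The deposited values are raw UMI counts per gene and barcode, not normalized by the authors.

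The study's cell filter was applied, which asks for more than 200 and fewer than 4000 genes and for mitochondrial counts under 40%. The brain library held 26221173 UMIs in 4640 barcodes and the lung library 36816962 UMIs in 5981. Classes were set by the number of markers with at least 1 UMI (for example 4 of 6 shared astroglial markers with at least 2 quiescent markers and more of these than of astrocyte-like ones, or 6 of 10 neuroblast markers). The least numbers of markers were set after the counts had been seen. Cycling cells had at least 4 of 10 G2/M or 5 of 8 S phase markers, and non-cycling cells at most 1 of each. Scrublet called 44 brain and 69 lung doublets, which were kept, and leaving them out was an alternative. Counts were summed per class.

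The genes, lists and comparisons were chosen with earlier results of these data known. All 10 members were described. Other list genes were named where they had at least 20 UMIs, were 2-fold apart and had an interval that left out 1, or were the main form of a step, and 3 genes were named for the likeness of their levels to Aldoc, Hk2, Eno2, Ldha and Ldhb. Lhfpl3 among the markers, and Pgk2, Eno1b and Tigar among the pathway genes, had no counts under those symbols. Eno1b was counted under its older symbol, Gm5506, and was read only as a copy of Eno1. Gene positions are from GENCODE M21 (GRCm38), and near-identical 3′ ends were found with BLAST (2.17.0), at 95% identity over at least 80 bases of the last 400. The interval step was checked on simulated counts. Python (3.11.15), scipy (1.17.1), R (4.3.3) and Seurat (5.3.0) were used. Alternatives covered the filters, the doublets, the gates, Louvain clusters made without glycolysis genes, means over cells and the scaling.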

Additional observations from a re-analysis of the deposited data

Results flagged for a closer look

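Ldha lay on opposite sides of 1 in 2 lineages, in neither of them 2-fold apart. Its level in non-cycling over cycling cells was 0.754 in brain neuroblasts and 1.30 in lung pericytes, with counting intervals that left out 1 on either side (0.592 to 0.962 and 1.08 to 1.56). In lung endothelial cells, from the same library as the pericytes, it was 0.692 (0.524 to 0.931), in the direction of the brain neuroblasts. In lung myofibroblasts it was 0.827 (0.682 to 1.01), an interval that held 1. Each tissue had 1 library, and the differences between lineages were not tested.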

How the results depend on the processing

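No paired analysis was possible because each tissue had 1 library, and no library could be left out. Alternatives for single genes were run for qNSCs over cycling progenitors and for the vessel classes, and no called member changed direction there. The other comparisons of single genes were not repeated. The Eno2 share difference, whose interval held 0, lay between -1.09 and 2.48 percentage points. None of Ldha, Pkm and Pgk1 was called, and their ratios ran from 0.823 to 1.17, from 0.688 to 1.09 and from 0.583 to 1.18. The lowest Pkm ratio, with qNSCs and astrocyte-like cells joined, lay below its main interval of 0.765 to 1.11. The difference in Aldoc share between qNSCs and cycling progenitors, 37.0 percentage points, was 50.3 with no upper limit on genes per cell (168 in place of 96 cycling progenitors), 57.3 with 1 more marker required for each class, 58.4 as a mean over cells, and 48.3 with the endothelial level of Aldoc taken off the progenitors, an alternative chosen after seeing the data. It was lower, 28.5, with 2 or more G2/M markers, and, chosen after seeing the data, 28.5 in progenitors inside the neuroblast gate, 41.7 outside it and 33.0 with 0 Dcx UMIs. The difference in Hk2 share, -49.4, was -30 with no upper limit on genes and -26.04 with Louvain clusters. The difference in Ldhb share, 11.1, was 2.51 in progenitors inside the neuroblast gate, 15.5 in those outside it and 14.6 in those with 0 Dcx UMIs, all chosen after seeing the data. The number of members called was 5, and 3 with 1 more marker, where Hk2 and Ldhb were lost. It was 4, without Hk2, with no upper limit on genes, with Louvain clusters and with 2 or more G2/M markers, and 7, with Hk1 and Eno2 added, with qNSCs and astrocyte-like cells joined. Eno1 was 2.09 with Louvain clusters against 4.27. The 5 members called stayed past 2-fold in all 11 alternatives except Ldhb, at 1.98 with 1 more marker, and Aldoc ranged from 34.6 to 133. In neuroblasts over cycling neuroblasts, Louvain clusters gave 2 members called in place of 1, and the other 5 settings 1. Of the other pathway genes, 12 were called, against 7 with 1 more marker, 18 with Louvain clusters, 22 with qNSCs and astrocyte-like cells joined, and 10 to 12 in the other 5 settings. All alternatives for these 2 counts were added after seeing the data. The causes were not tested. Of 226 values for single genes, 218 moved by less than their counting interval. This count says little on stability, since some intervals were very wide, such as 0.214 to 242.5 for Eno2 in qNSCs over cycling progenitors. Some settings also left the classes almost unchanged, with 95 of 96 cycling progenitors kept when Scrublet calls were removed. At this depth 1 UMI stood for 2.32 CPM in qNSCs, so Hk2 and Eno2 rested on few molecules.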
